A study of Mus musculus with 46 samples.

Results

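The signalling lymphocytic activation molecule (SLAM) receptors and their adaptor SAP were followed through MC-38 tumors in which PD-1 was blocked with an antibody or deleted. The set had 9 genes, taken by name from the 48795 gene rows of the FPKM table (read fragments scaled to gene length and library size): the receptors Slamf1, Slamf6, Slamf7, Slamf8, Slamf9, Ly9, Cd48 and Cd84, and Sh2d1a, which encodes SAP. They were read in 8 groups and divided by the cells that are known to carry them into 4 lymphoid genes (Slamf1, Slamf6, Ly9 and Sh2d1a), 3 genes shared by lymphoid and myeloid cells (Slamf7, Cd48 and Cd84) and 2 myeloid genes (Slamf8 and Slamf9).

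SLAM receptors are immunoglobulin-like surface proteins of blood cells. Most bind a copy of themselves on the neighbouring cell, whereas CD48, which is held in the membrane by a lipid anchor, is bound by CD244 and, in mice, by CD2. The tails of Slamf1, Slamf6, Ly9 and Cd84 carry tyrosine motifs that recruit SAP and through it the kinase Fyn, Slamf7 uses the related adaptor EAT-2, and Slamf8 and Slamf9 have short tails without these motifs. Loss of SAP in people causes X-linked lymphoproliferative disease, and in tumors Slamf6 is used as a marker of progenitor-like exhausted T cells.

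The 8 receptor genes lay together on mouse chromosome 1 and the adaptor lay on X. On GRCm38 coordinates the receptors ran from 171588624 to 172590568, a span of 1002 kb, with Ly9, Slamf7, Cd48, Slamf1, Cd84 and Slamf6 in a first stretch of 365 kb and Slamf9 and Slamf8 in a second stretch of 115 kb, 522 kb further on. Sh2d1a lay at X from 42502453 to 42529330. All were protein-coding genes, and the values below are sums over each gene's exons. The exons of Sh2d1a overlapped the opposite-strand gene Tenm1 over 26.6% of their bases, and 25.6% of the 50-base stretches of Sh2d1a also occurred in another gene. For Slamf7 that share was 7.14%, all shared with the overlapping gene Gm37787, also on the opposite strand. The libraries were stranded, but whether the strand was used in quantifying genes is not stated. The levels of these 2 genes thus carry an uncertainty that the table does not resolve. The share was at most 2.38% for the other 7.

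Promoter sequences are shown for the pair of myeloid receptors and for Cd48, a ligand gene of the first stretch whose window held 2 overlapping matches. The RefSeq windows hold 250 bases before and 50 bases after the gene's start and were available for 7 of the 9 genes. Each is written 5′ to 3′ on the gene's strand, with motif matches in capitals. The windows are Slamf8 at chr1:172590519-172590818 on the minus strand, Slamf9 at chr1:172475110-172475409 on the plus strand and Cd48 at chr1:171681742-171682041 on the plus strand, all in GRCm38.p6.
Slamf8: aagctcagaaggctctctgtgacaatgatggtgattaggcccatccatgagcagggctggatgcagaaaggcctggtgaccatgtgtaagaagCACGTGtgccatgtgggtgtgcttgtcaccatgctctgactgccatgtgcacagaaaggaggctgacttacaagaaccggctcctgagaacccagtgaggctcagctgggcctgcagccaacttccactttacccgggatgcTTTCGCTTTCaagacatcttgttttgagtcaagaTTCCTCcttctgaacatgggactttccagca
Slamf9: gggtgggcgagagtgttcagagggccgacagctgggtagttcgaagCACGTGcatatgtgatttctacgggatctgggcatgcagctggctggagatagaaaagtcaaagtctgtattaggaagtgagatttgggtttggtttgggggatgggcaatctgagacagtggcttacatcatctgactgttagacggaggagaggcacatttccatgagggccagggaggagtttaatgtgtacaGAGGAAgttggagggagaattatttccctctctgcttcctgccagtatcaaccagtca
Cd48: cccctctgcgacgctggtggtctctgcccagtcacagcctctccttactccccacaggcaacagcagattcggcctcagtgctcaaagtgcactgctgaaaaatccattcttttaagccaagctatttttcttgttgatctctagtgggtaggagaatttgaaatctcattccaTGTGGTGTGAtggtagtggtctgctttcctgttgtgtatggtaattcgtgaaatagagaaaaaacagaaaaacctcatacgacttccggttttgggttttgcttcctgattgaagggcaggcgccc

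Searches covered 6 motifs on both strands: an ETS core (GAGGAA, in 28.3% of 32851 promoter windows), an interferon-stimulated response element (3.44%), a STAT site (TTCNNNGAA, 8.30%), a T-box half-site (GGTGTGA, 3.98%), a RUNX core (TGTGGT, 16.8%) and an E-box (CACGTG, 7.15%). The Slamf8 window held the interferon element once, read on the opposite strand, with an E-box upstream and an ETS core downstream of the start. Slamf9 held an E-box and an ETS core and no interferon element. In Cd48 the RUNX core and the T-box half-site overlapped. Cd84 held an ETS and a RUNX core, and the windows of Slamf1, Slamf6 and Slamf7 held none of the 6. A match describes letters in the window and was not tested as a binding site.

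The tumors came from MC-38 cells, a mouse colon carcinoma line, injected under the skin. In the antibody study, wild-type C57BL/6 mice were given the PD-1 antibody muDX400 (PD-1 Ab) at 5 mg/kg or an isotype antibody. Tumors were taken before treatment (baseline, n = 3), at day 4 after 1 dose (day 11 after implant; n = 5 for each antibody) and at day 8 after 2 doses (day 15 after implant; n = 5 for each antibody). In the deletion study, PD-1cKO mice carried the tamoxifen-inducible Rosa26-creERT2 and Pdcd1 fl/fl. These mice and littermates labelled WT were both given tamoxifen at 40 mg/kg, and tumors carry the label day 28 (n = 10 each). The study's results also give day 28 after implant, while its methods give an earlier day. The Rosa26 locus is active in most cell types, and the extent of deletion outside T cells was not measured here. MC-38 cells in culture (n = 3) completed the 46 samples, 43 of them tumors. Tumors were taken from separate mice, whereas nothing in the labels says that the 3 cultures were separate.

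Several libraries stood apart. One tumor of the isotype group at 1 dose, replicate 1, drew 54.6% of its FPKM from mitochondrial genes (3.45 to 4.31% in its 4 group mates), and results at 1 dose are given with and without it. Short non-coding RNAs took 30.2 to 66.5% of FPKM in the deletion study and at most 0.0746% elsewhere, so levels are compared between the 2 studies only as a description. The sample identifiers of the deletion study fall into 3 numbered runs with 7, 1 and 2 PD-1cKO tumors against 0, 9 and 1 WT tumors. Whether the runs mark a batch is not stated. Pdcd1 itself was listed at 1.71 to 7.02 FPKM (median 3.01) in WT and 5.05 to 19.9 (median 8.29) in PD-1cKO tumors. The value covers the whole gene and not the floxed exons, so it does not check the genotype.

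The cultured tumor cells carried little of the set. Slamf6, Sh2d1a and Slamf9 were listed at 0 in all 3 cultures, and Slamf1, Slamf7, Cd48 and Cd84 were at or below 0.0435 FPKM. Ly9 at 0.281, 0.381 and 0.257 FPKM and Slamf8 at 0.937, 1.41 and 0.939 FPKM were the exceptions. All of these cultures lay below every tumor for Slamf6, Ly9, Slamf7, Cd48, Cd84, Slamf8 and Slamf9, while for Slamf1 and Sh2d1a some tumors were also near or at 0. Against the isotype tumors at 2 doses, 26.3% of all tested genes were likewise lower in every culture. The T cell genes Cd3d, Cd3e and Cd3g and the macrophage genes Adgre1, C1qa, C1qb and C1qc were likewise listed at 0 in culture.

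Isotype tumors at 2 doses were higher than the cultures for all 7 members that passed the filter on low values. Of all tested genes, 14.2% were called higher. Except for Slamf8, with a culture mean of 1.09 FPKM, these members passed the filter only through the isotype tumors. Their culture means were at most 0.306 FPKM. For them the filter thus fixed the direction of the difference, though not its size. The test throughout was limma on log2(FPKM + 0.1), with a gene called when its Benjamini-Hochberg adjusted p over all tested genes was under 0.01 and it changed at least 2-fold. On this scale the difference was 3.86 for Ly9 and 4.02 for Slamf8, and reached 6.51 for Cd48. No fold is given for the genes listed at 0. No member was called between the baseline and the isotype tumors (limma, 0 of 7 tested, 0.595% of all genes), with differences between -0.63 and 0.35. For Ly9 all 3 baseline tumors, at 2.36 to 4.71 FPKM, were below every isotype tumor, at 5.35 to 6.46. The share of all genes that did so is not given here. Among the 14967 genes, 2647 had an unadjusted p under 0.05.

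The order of the genes differed between the studies. In the isotype tumors at 2 doses, Slamf9 had a mean of 20.1 ± 4.57 FPKM (SD, n = 5) and Slamf8 of 19.1 ± 2.63, followed by Cd48 at 11.4 ± 1.29, Cd84 at 8.00 ± 1.32, Ly9 at 5.77 ± 0.435 and Slamf7 at 4.11 ± 1.52. Slamf6 at 1.22 ± 0.329 and Sh2d1a at 0.391 ± 0.157 were low, and Slamf1 was listed at 0 in 3 of the 5 tumors. In WT and PD-1cKO tumors Cd84, at 19.2 ± 4.94 and 31.5 ± 17.1 FPKM (SD, n = 10 each), was above Slamf9. FPKM is scaled to gene length, so the genes can be set side by side. Summed over the genes of each class, the lymphoid level was 0.199 of the myeloid level at the median in these isotype tumors and 0.252 in the PD-1 Ab tumors at 2 doses. Ly9 made up most of the lymphoid sum in both groups.

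**Figure D1:**
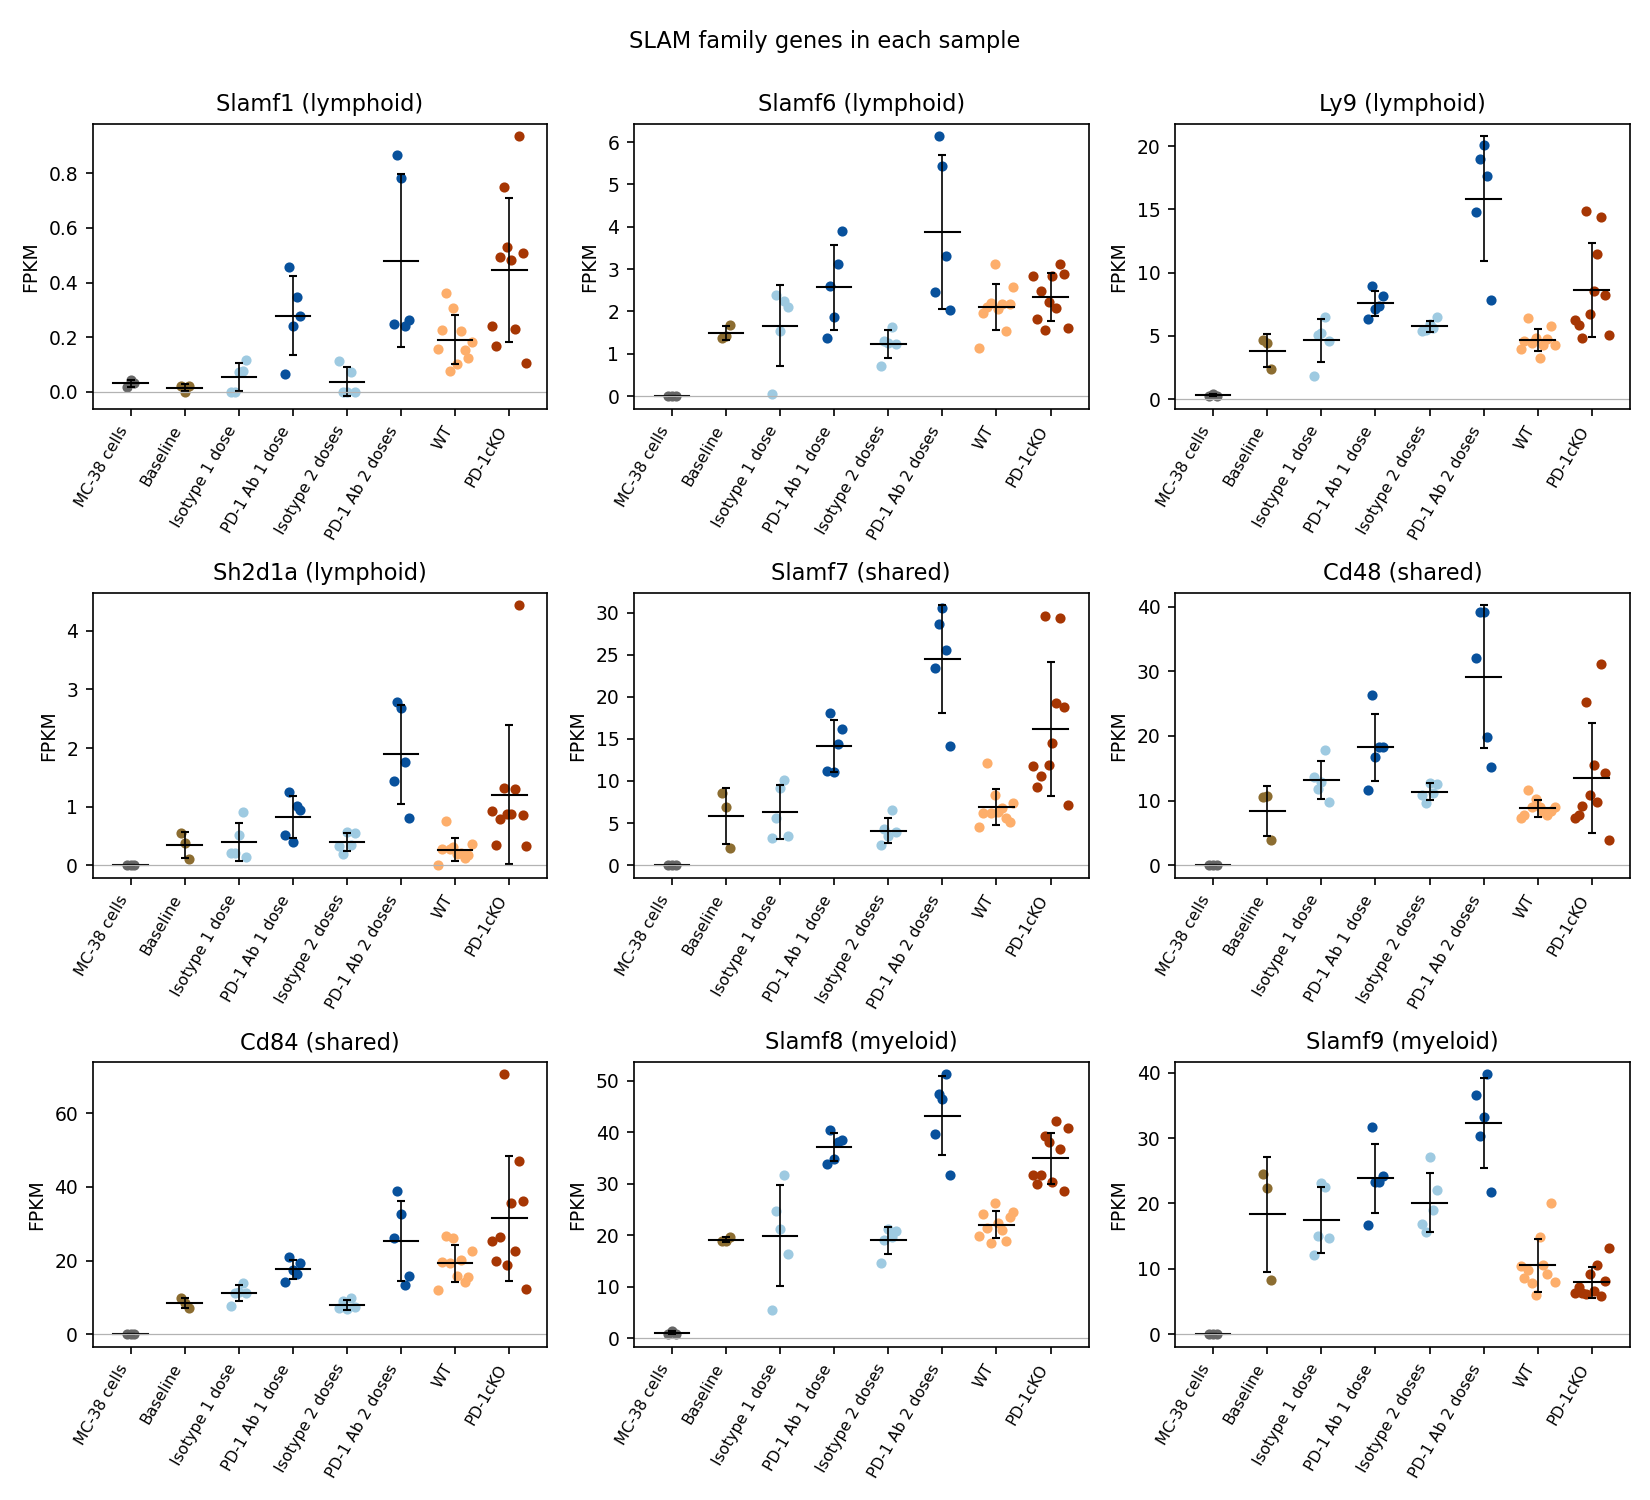
FPKM (linear axis) of each of the 9 genes in every sample of the 8 groups, one panel per gene, with points for samples, lines for group means and bars for the SD. The cultured cells sit near 0 in each panel (highest for Slamf8, at 0.937 to 1.41 FPKM), and the PD-1 Ab tumors at 2 doses have the highest group mean for every gene except Cd84, which is highest in PD-1cKO.

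Ordered by group mean, PD-1 Ab at 2 doses ranked first among the 8 groups for 8 of the 9 genes. Cd84 was the exception, at 31.5 ± 17.1 FPKM in PD-1cKO and 25.3 ± 10.9 in PD-1 Ab at 2 doses. The cultures had the lowest mean for every gene except Slamf1, which was lowest in the baseline tumors, and their range was apart from that of the next group for 7 of the 9 genes, all but Slamf1 and Sh2d1a. Among tumor groups, each range overlapped that of the next group in the order except in 2 places, Cd84 between isotype and PD-1 Ab at 1 dose and Slamf8 between WT and PD-1cKO. Slamf9 had its lowest tumor means in both groups of the deletion study, 7.94 ± 2.39 FPKM in PD-1cKO and 10.6 ± 4.07 in WT.

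The comparison of PD-1 Ab with isotype at 2 doses asked which of the family's genes differed between blocked and unblocked tumors. Slamf6, Ly9, Sh2d1a, Slamf7, Cd48, Cd84 and Slamf8 were higher in the blocked tumors, by 1.17 to 2.57 on the log2 scale, with Slamf7 showing the widest difference. Slamf9 did not pass. Of the 8 members tested, 7 were called higher, whereas 5.03% of all 15062 genes tested were. One of the 7, Sh2d1a, had a mean of 0.391 FPKM in isotype and 1.89 in PD-1 Ab tumors. It passed the filter on low values only through the PD-1 Ab group. The median difference was 1.44 for the members and -0.04 for all genes. T cell markers rose in the same tumors (6 of 6 called, summed level 7.67 to 17.8 FPKM in isotype and 35.2 to 146 in PD-1 Ab tumors), as did macrophage markers (6 of 6 called, 785 to 1261 and 1478 to 3069 FPKM). Dendritic cell markers had 2 of 4 called (5.60 to 8.51 and 8.81 to 13.6 FPKM), adipose tissue 1 of 3 (7.01 to 76.4 and 20.7 to 659), skeletal muscle 1 of 3 (0.683 to 1.46 and 1.49 to 45.4) and NK cells 1 of 4 (3.65 to 7.79 and 11.0 to 25.3), while B cells had 0 of 5 and neutrophils had 1 of 3 called lower. The part of any of these cells in the members' differences was not tested. In whole tumors, more cells of a type and more RNA per cell cannot be told apart.

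Slamf7, a receptor of natural killer (NK) cells, activated T cells and macrophages, was at 2.37, 4.29, 3.44, 6.49 and 3.95 FPKM in the isotype tumors and at 23.5, 28.6, 30.6, 25.5 and 14.1 FPKM in the PD-1 Ab tumors. The lowest PD-1 Ab tumor was thus above the highest isotype tumor, as it was for 9.23% of all tested genes. Its log2 difference was 2.57 ± 0.26 (SE; 95% interval 1.998 to 3.142; limma adjusted p = 0.000806). Slamf8 held 14.7, 19.0, 21.3, 19.6 and 20.7 FPKM with isotype and 39.6, 47.4, 46.4, 51.2 and 31.6 with PD-1 Ab, again without overlap. Its difference was 1.17 ± 0.15 (SE; limma adjusted p = 0.000885). Slamf7, Slamf8 and Ly9 stayed called when any single tumor was left out.

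Ly9, a self-binding receptor of T and B cells, was at 5.35, 5.50, 5.92, 5.65 and 6.46 FPKM with isotype and at 14.8, 19.0, 20.1, 17.6 and 7.83 FPKM with PD-1 Ab. The fifth PD-1 Ab tumor lay close to the isotype range and the other 4 lay well above it, and the difference was 1.37 ± 0.22 (SE; limma adjusted p = 0.00219). That tumor was also the lowest of its group for Slamf6, Sh2d1a, Slamf7, Cd48, Slamf8 and Slamf9. Sh2d1a, the adaptor, was at 0.321, 0.194, 0.559, 0.339 and 0.545 FPKM with isotype and at 1.44, 2.78, 2.69, 1.76 and 0.797 FPKM with PD-1 Ab. These ranges did not overlap, and the difference was 1.96 ± 0.36 (SE; limma adjusted p = 0.00407). Slamf6 had 0.708, 1.31, 1.25, 1.62 and 1.22 FPKM with isotype and 2.46, 6.13, 5.44, 3.31 and 2.04 with PD-1 Ab. Every PD-1 Ab tumor was above every isotype tumor, with a difference of 1.51 ± 0.32 (SE; limma adjusted p = 0.00753).

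Cd48, the ligand of CD244 and CD2, was at 10.9, 9.60, 12.8, 11.2 and 12.5 FPKM with isotype and at 32.1, 39.2, 39.2, 19.9 and 15.3 with PD-1 Ab. Cd84, a self-binding receptor, had 7.15, 9.13, 6.70, 9.70 and 7.34 FPKM with isotype and 26.1, 38.8, 32.5, 13.2 and 15.8 with PD-1 Ab. For both genes PD-1 Ab replicates 4 and 5 were nearest to the isotype tumors and there was no overlap. The differences were 1.26 ± 0.24 (SE; limma adjusted p = 0.00523) and 1.55 ± 0.27 (SE; limma adjusted p = 0.00306).

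The calls of 4 genes depended on single tumors. Slamf6 kept its call in 2 of the 10 fits that each left out 1 tumor, without isotype replicate 4 or PD-1 Ab replicate 5, with limma adjusted p from 0.00179 to 0.0259 over the 10. Cd48 kept it in 3 (0.000261 to 0.017), Sh2d1a in 5 (0.000447 to 0.016) and Cd84 in 7 (0.000939 to 0.0114). The differences themselves stayed between 1.13 and 2.22 for these 4 genes.

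Slamf9 had 16.9, 15.7, 27.0, 19.0 and 22.1 FPKM with isotype and 36.6, 30.4, 33.2, 39.7 and 21.7 with PD-1 Ab. In this gene 4 PD-1 Ab tumors were above the isotype range and the fifth was inside it. The difference was 0.68 ± 0.18 (SE; limma adjusted p = 0.0215), so neither limit of a call was met. Slamf1, listed at 0.112, 0, 0, 0.074 and 0 FPKM with isotype and at 0.249, 0.866, 0.784, 0.240 and 0.261 with PD-1 Ab, did not pass the filter on low values. Its ranges did not overlap, and without the filter the difference was 1.99 (limma adjusted p = 0.0148), a value that the added 0.1 makes smaller than the change in FPKM.

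After 1 dose no gene of the whole table was called (0 of 14556, or 0%; 895 had an unadjusted p under 0.05), and no member was either. Sh2d1a, at a mean of 0.394 FPKM in isotype and 0.82 in PD-1 Ab tumors, passed the filter only through the PD-1 Ab group. Every tested member had a positive difference, from 0.45 to 1.28, but the median over all genes was 0.26. With median-of-ratios scaling, which brings that median to 0.01, the members' differences ranged from 0.20 for Cd48 to 1.03 for Slamf7. Slamf7 was at 3.27, 5.64, 9.14, 10.1 and 3.41 FPKM with isotype and at 11.2, 18.1, 11.0, 14.4 and 16.2 with PD-1 Ab, without overlap. Its difference was 1.28 ± 0.34 (SE; limma adjusted p = 0.321). Cd84 and Slamf8 also did not overlap, at 7.66 to 13.9 against 14.3 to 20.9 FPKM and at 5.52 to 31.6 against 33.9 to 40.4 FPKM. Together 3 of the 8 tested members were higher in every PD-1 Ab tumor, as were 3.59% of all genes. For Slamf1, outside the test, 4 of 5 PD-1 Ab tumors were above every isotype tumor.

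Without isotype replicate 1, the library rich in mitochondrial FPKM, the differences were 1.09 for Slamf7 (limma adjusted p = 0.1), 0.69 for Slamf8 (0.0661), 0.55 for Cd84 (0.0586) and 0.50 for Ly9 (0.0949). That library held 0.0531 FPKM of Slamf6 against 1.53 to 2.39 in the other 4, and the Slamf6 difference was 0.99 ± 0.70 (SE) with it and 0.23 without it. It also held 5.52 FPKM of Slamf8 against 16.4 to 31.6, while its Cd48 at 13.7 FPKM was inside the group's range. The change in difference from the first to the second dose was 1.29 for Slamf7, 0.87 for Cd84, 0.81 for Cd48, 0.95 for Sh2d1a, 0.58 for Ly9, 0.52 for Slamf6, 0.21 for Slamf9 and 0.07 for Slamf8. None of these was called (limma, adjusted p of at least 0.623; 0% of all genes). Without isotype replicate 1 the change was 1.28 for Slamf6, 0.87 for Ly9 and 0.47 for Slamf8. No member was called in any fit that left out 1 tumor.

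**Figure D2:**
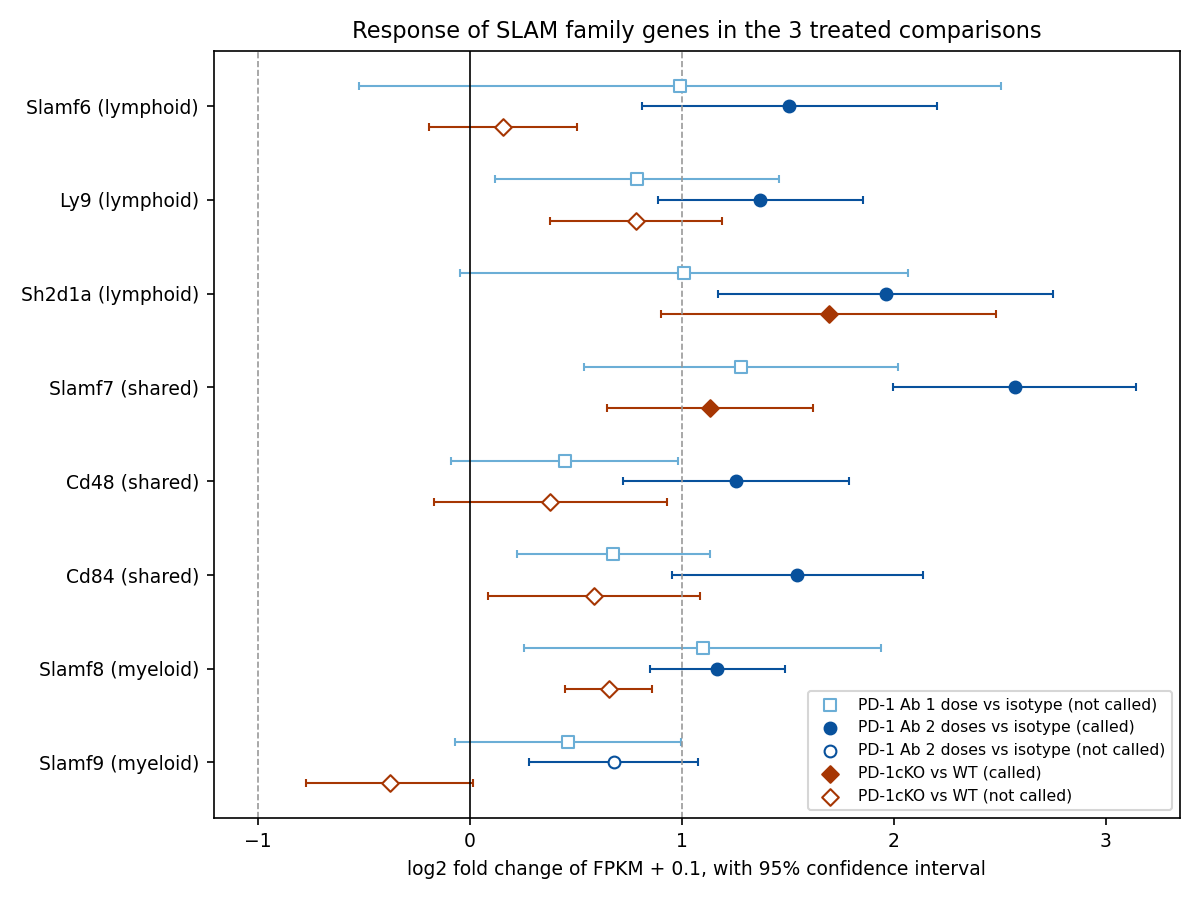
Log2 difference in FPKM (+ 0.1) with 95% intervals for each tested gene in PD-1 Ab against isotype after 1 dose, after 2 doses and in PD-1cKO against WT. Filled points passed the call, which holds for 7 genes after 2 doses and for Sh2d1a and Slamf7 in PD-1cKO, and Slamf9 is the gene below 0 in PD-1cKO.

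The comparison of PD-1cKO with WT asked the same of tumors in which Pdcd1 was deleted. Sh2d1a and Slamf7 were called higher in PD-1cKO than in WT tumors, Slamf8 and Ly9 passed the limit on adjusted p but not on fold, and Slamf6, Cd48, Cd84 and Slamf9 did not pass. Of 8 tested members 2 were called higher, where 4.20% of all genes were. Sh2d1a, at a mean of 0.265 FPKM in WT and 1.21 in PD-1cKO, passed the filter on low values only through PD-1cKO. An adjusted p under 0.01 (limma) was reached by 4 members, where 21.3% of all genes did so in either direction. The median difference was 0.62 for the members and -0.20 for all genes. T cell markers were called higher for 6 of 6 genes (summed level 9.43 to 37.4 FPKM in WT and 23.5 to 94.4 in PD-1cKO), macrophage markers for 4 of 6 (910 to 1483 and 1306 to 4460 FPKM) and neutrophil markers for 3 of 5 (2.63 to 12.1 and 4.86 to 381 FPKM), and for 0 of the tested genes of NK cells, B cells, dendritic cells, adipose tissue and skeletal muscle. Their part in the members' values was not tested.

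For Sh2d1a the lowest, median and highest WT tumors had 0, 0.235 and 0.753 FPKM, and the PD-1cKO tumors 0.333, 0.879 and 4.44 FPKM. The ranges overlapped and 8 of 10 PD-1cKO tumors were above every WT tumor. The difference was 1.69 ± 0.38 (SE; limma adjusted p = 0.00279). Slamf7 ran from 4.53 through a median of 6.25 to 12.1 FPKM in WT and from 7.13 through 13.2 to 29.6 FPKM in PD-1cKO. The ranges overlapped, with 5 PD-1cKO tumors above every WT tumor, and the difference was 1.13 ± 0.23 (SE; limma adjusted p = 0.00179). Both calls held without any single tumor.

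Slamf8 was the one member whose WT and PD-1cKO tumors did not overlap, as was the case in this direction for 0.643% of all genes. It ran from 18.5 through a median of 21.9 to 26.2 FPKM in WT and from 28.6 through 34.2 to 42.1 FPKM in PD-1cKO, a difference of 0.66 ± 0.10 (SE; limma adjusted p = 0.000518). Within the second identifier run the single PD-1cKO tumor had 36.7 FPKM and the 9 WT tumors 18.5 to 26.2, and within the third the PD-1cKO tumors had 28.6 and 40.8 and the WT tumor 24.5. Ly9 had 3.28, 4.50 and 6.45 FPKM as lowest, median and highest WT values and 4.84, 7.48 and 14.9 in PD-1cKO. Above the WT range lay 6 PD-1cKO tumors, with a difference of 0.78 ± 0.20 (SE; limma adjusted p = 0.00482).

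With the identifier run as a covariate the differences were 2.43 for Sh2d1a (limma adjusted p = 0.0261), 1.51 for Slamf7 (0.0261), 1.17 for Ly9 (0.0276) and 0.64 for Slamf8 (0.027), and no gene of the whole table was called. Within the second run Sh2d1a was at 4.44 FPKM in the PD-1cKO tumor and at most 0.753 in WT. In the third it was 0.849 and 0.333 in PD-1cKO and 0.36 in WT. Slamf7 was at 29.4 FPKM against at most 12.1 in the second run, and at 18.8 and 7.13 against 7.42 in the third. The first run held no WT tumor to compare.

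Cd84 reached 70.6 FPKM in 1 PD-1cKO tumor, with a median of 25.9 against 19.5 in WT, and Cd48 reached 31.1 with a median of 10.3 against 8.63. Both ranges overlapped WT at the low end, where the lowest Cd48 value of all 20 tumors, 3.87 FPKM, was a PD-1cKO tumor. The differences were 0.58 ± 0.24 (SE; limma adjusted p = 0.0537) and 0.38 ± 0.26 (0.24). Slamf6 ran from 1.56 through 2.36 to 3.13 FPKM in PD-1cKO and from 1.14 through 2.14 to 3.13 in WT, so no PD-1cKO tumor exceeded the WT range, and its difference was 0.16 ± 0.17 (SE; limma adjusted p = 0.455). Slamf9 ran from 5.82 through 6.90 to 13.1 FPKM in PD-1cKO and from 6.01 through 9.52 to 20.02 in WT, with a difference of -0.38 ± 0.19 (SE; limma adjusted p = 0.108). Relative to a median of all genes near 0, with median-of-ratios scaling, the differences were 0.31 for Slamf6, 0.54 for Cd48, 0.75 for Cd84 and -0.22 for Slamf9. Slamf1, below the filter, had 0.0779, 0.169 and 0.361 FPKM as lowest, median and highest WT values and 0.105, 0.488 and 0.935 in PD-1cKO, with 6 tumors above every WT tumor.

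The responses to antibody at 2 doses and to deletion were set against each other as a difference of differences. The antibody response was the larger one for all 8 tested members, by 1.35 ± 0.33 (SE) on the log2 scale for Slamf6 (limma adjusted p = 0.0522), 1.44 ± 0.39 for Slamf7 (0.0845) and 1.06 ± 0.31 for Slamf9 (0.103), down to 0.27 for Sh2d1a (0.839). No member was called, and 0.0914% of all genes were. The median of all genes was 0.23, and the 2 studies differed in day of collection and in short RNA content.

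In a ratio between genes of the same tumor, a scaling shared by the library cancels, except in low genes such as Slamf1 and Sh2d1a, where the added 0.1 keeps part of it. Each lymphoid gene was divided by each myeloid receptor. Over the 3 comparisons 24 ratios were tested together. After 1 dose 0 of 8 passed an adjusted p of 0.05. At 2 doses 2 of 8 passed, both over Slamf9. The log2 ratio of Ly9 to Slamf9 had a mean of -1.76 with isotype and -1.07 with PD-1 Ab, a difference of 0.69 ± 0.19 (SE, n = 5 and 5; exact permutation p = 0.00794, adjusted 0.0436). Sh2d1a over Slamf9 had a difference of 1.28 ± 0.28 (the same exact permutation p and adjusted value), and in both ratios all 5 PD-1 Ab tumors were above every isotype tumor. This is the smallest two-sided p that 5 against 5 tumors can give. Both kept an adjusted p under 0.05 in 4 of 10 fits that left out 1 tumor (up to 0.0544 and 0.0521). With a pseudocount of 1 neither passed, with differences of 0.60 for Ly9 (adjusted p = 0.0635) and 0.36 for Sh2d1a (0.234).

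In the deletion study 5 of 8 ratios passed, and 4 of them were higher in PD-1cKO. Sh2d1a over Slamf9 rose by 2.07 ± 0.50 and Ly9 over Slamf9 by 1.16 ± 0.31 (SE, n = 10 and 10; permutation, adjusted p = 0.0118 for each), with 8 and 7 of 10 PD-1cKO tumors above every WT tumor. Slamf1 over Slamf9 (1.17) and Sh2d1a over Slamf8 (1.04) also rose (permutation, adjusted p = 0.0436 for each). Slamf6 over Slamf8 was the ratio that fell, by 0.50 on the log2 scale (adjusted p = 0.0446). The last 3 lost their call in 14 to 16 of the 20 fits that left out 1 tumor, with adjusted p up to 0.0735. With a pseudocount of 1, Sh2d1a over Slamf8 was 0.06 (adjusted p = 0.82) and Slamf1 over Slamf9 0.60 (0.0661), so neither passed, and Sh2d1a over Slamf9 was 1.04 (0.0128). The ratio of the 2 myeloid receptors was not tested. Slamf8 was 2.12 times Slamf9 at the median of WT tumors (1.18 to 4.36) and 4.38 times in PD-1cKO (3.10 to 6.39). At 2 doses it was 0.938 times in isotype (0.788 to 1.21) and 1.40 times in PD-1 Ab tumors (1.08 to 1.56). The ranges overlapped in both studies.

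Members were then set against markers of the cells that carry them, the mean log2 level of Cd3d, Cd3e and Cd3g for T cells and of 6 macrophage genes. Most lymphoid and shared genes were higher in the treated tumors by less than the Cd3 genes were. At 2 doses the ratio to the Cd3 genes fell for Slamf6 by 1.14 ± 0.28, for Ly9 by 1.28 ± 0.26 and for Cd48 by 1.39 ± 0.29 on the log2 scale (SE, n = 5 and 5; exact permutation, adjusted p = 0.0238 for each), with all 5 PD-1 Ab tumors below every isotype tumor. Sh2d1a (-0.69, adjusted p = 0.0477) and Cd84 (-1.10, 0.0408) passed as well, and each did so in 2 of 10 fits without 1 tumor (adjusted p up to 0.0816 for each). For Slamf7, the ratio to the Cd3 genes moved by -0.08 ± 0.29 (exact permutation, adjusted p = 0.802), and its ratio to the macrophage genes rose by 1.20 ± 0.22 (adjusted p = 0.0238). Slamf9 over the macrophage genes fell by 0.69 ± 0.16 (exact permutation, adjusted p = 0.0238, 5 of 5 tumors below every isotype tumor). In all, 7 of 12 ratios passed at 2 doses out of 36 tested in the 3 comparisons. The T cell markers had a median log2 difference of 2.74 at 2 doses and the macrophage markers 1.34, against -0.04 for all genes. A gene at the median of all genes would thus also fall in these ratios. The share of all genes that fell was not computed.

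In PD-1cKO 9 of the 12 ratios passed, all of them lower than in WT. There the T cell markers had a median log2 difference of 1.77 and the macrophage markers 1.08, against -0.20 for all genes. The share of all genes with a lower ratio was not computed here either. Slamf6 over the Cd3 genes fell by 1.45 ± 0.26, Cd48 by 1.23 ± 0.18, Cd84 by 1.02 ± 0.17 and Ly9 by 0.82 ± 0.15 (SE, n = 10 and 10; permutation, adjusted p = 0.00144 for each). Slamf1 fell by 0.81 and Slamf7 by 0.47 (permutation, adjusted p = 0.00576 for each). The adaptor did not pass, as Sh2d1a over the Cd3 genes moved by 0.09 ± 0.23 (permutation, adjusted p = 0.784). With a pseudocount of 1 in place of 0.1 that ratio was -0.56 (adjusted p = 0.00306), so the value for Sh2d1a depends on how low levels are treated. The 3 changed ratios to the macrophage genes were Slamf9, which fell by 1.41 ± 0.31 (SE; permutation, adjusted p = 0.00216, 7 of 10 tumors below every WT tumor), Slamf8, which fell by 0.37, and Cd48, which fell by 0.65 (0.0477 for each). The last 2 passed in 5 and 3 of the 20 fits without 1 tumor, with adjusted p up to 0.0772 and 0.083.

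After 1 dose 2 of 12 marker ratios passed, Sh2d1a at -1.13 (exact permutation, adjusted p = 0.0408) and Cd48 at -1.69 (0.0477), both over the Cd3 genes. Without isotype replicate 1 they were -0.74 (0.0477) and -1.17 (0.0571). Leaving out PD-1 Ab replicates 2, 3, 4 or 5 ended the Sh2d1a call (adjusted p up to 0.084), and any PD-1 Ab tumor that of Cd48 (up to 0.111).

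**Figure D3:**
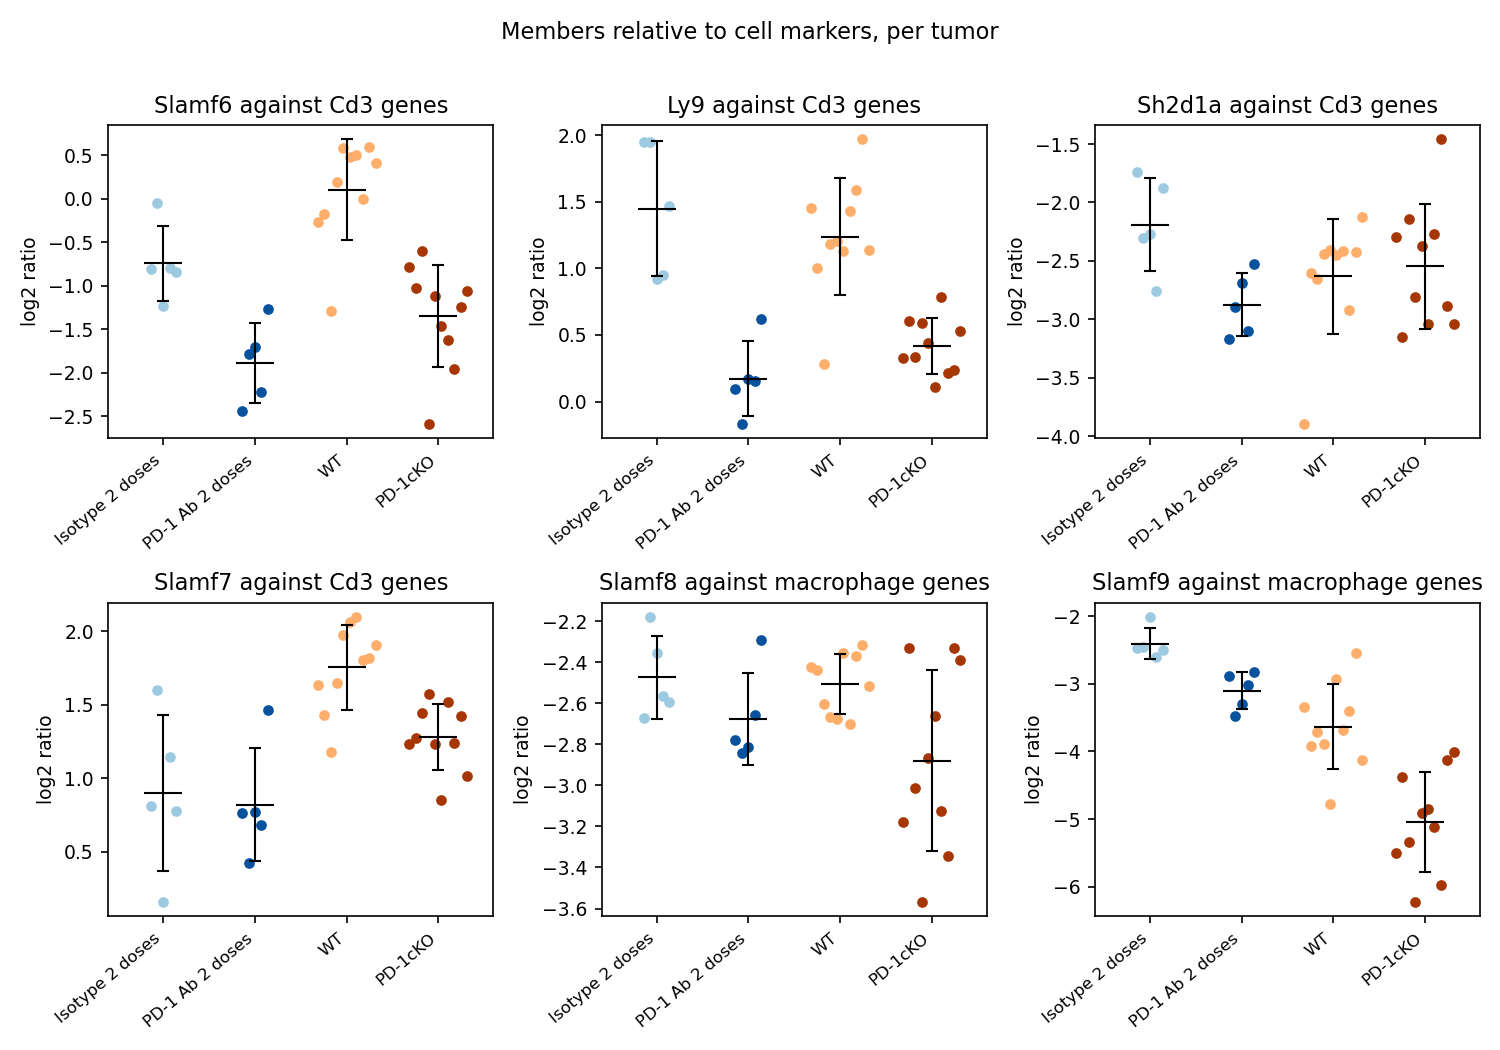
Log2 ratio of Slamf6, Ly9, Sh2d1a and Slamf7 to the mean of the Cd3 genes, and of Slamf8 and Slamf9 to the mean of the macrophage genes, in each isotype and PD-1 Ab tumor at 2 doses and each WT and PD-1cKO tumor, with bars for the mean and SD. The Slamf9 ratio is lower in all 5 PD-1 Ab tumors than in every isotype tumor and lower in 7 of 10 PD-1cKO tumors than in every WT tumor, while the Slamf7 ratio to the Cd3 genes overlaps between isotype and PD-1 Ab tumors.

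Among the 10 PD-1cKO tumors, most members varied with the Cd3 genes. Over 36 relations (9 genes, 2 marker sets, 2 groups) tested with permutations and adjusted together, 6 of 9 members correlated with the Cd3 genes in PD-1cKO. The share of all genes that would do so in these tumors was not computed, so the count does not set the family apart. Slamf7 had Pearson r = 0.946 and Spearman rho = 0.939 (permutation, adjusted p = 0.00096 for r), and r = 0.885 without the 2 tumors farthest from the median. Ly9 (r = 0.939, rho = 0.915) and Cd48 (r = 0.925, rho = 0.952) were alike, with r = 0.875 and 0.814 without these tumors. Sh2d1a (r = 0.854, rho = 0.842), Cd84 (r = 0.849, rho = 0.830) and Slamf1 (r = 0.764, rho = 0.782) passed too, the last with r = 0.522 without 2 tumors. Slamf6 had r = 0.346 and rho = 0.394 (permutation, adjusted p = 0.387), Slamf8 r = 0.134 and Slamf9 r = -0.455. With the macrophage genes, 0 of 9 passed in PD-1cKO by r, with Slamf8 at r = 0.716 and rho = 0.685 (permutation, adjusted p = 0.0591 for r). By rank 1 passed, Sh2d1a with rho = 0.794 (permutation, adjusted p = 0.0291) and r = 0.657 (0.0722). In WT tumors Slamf7 (r = 0.871), Sh2d1a (0.796), Cd48 (0.764), Cd84 (0.721) and Slamf1 (0.683, and 0.341 without 2 tumors) passed with the Cd3 genes, and Cd84 (0.847), Slamf6 (0.830) and Slamf8 (0.751) with the macrophage genes. With the Cd3 genes Slamf6 had r = 0.272 in WT, and 0.709 without the 2 tumors farthest from the median. By rho, Slamf7 (0.733), Cd48 (0.503) and Slamf1 (0.661) did not pass with the Cd3 genes in WT, nor did Slamf8 (0.673) with the macrophage genes (permutation, adjusted p from 0.0519 to 0.206), while Sh2d1a (0.794, adjusted p = 0.0291) and Slamf7 (0.745, 0.0492) passed with the macrophage genes. The genes of a tumor share the scaling of its library, and with median-of-ratios scaling 1 WT relation with the Cd3 genes and 2 PD-1cKO relations with the macrophage genes passed.

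**Figure D4:**
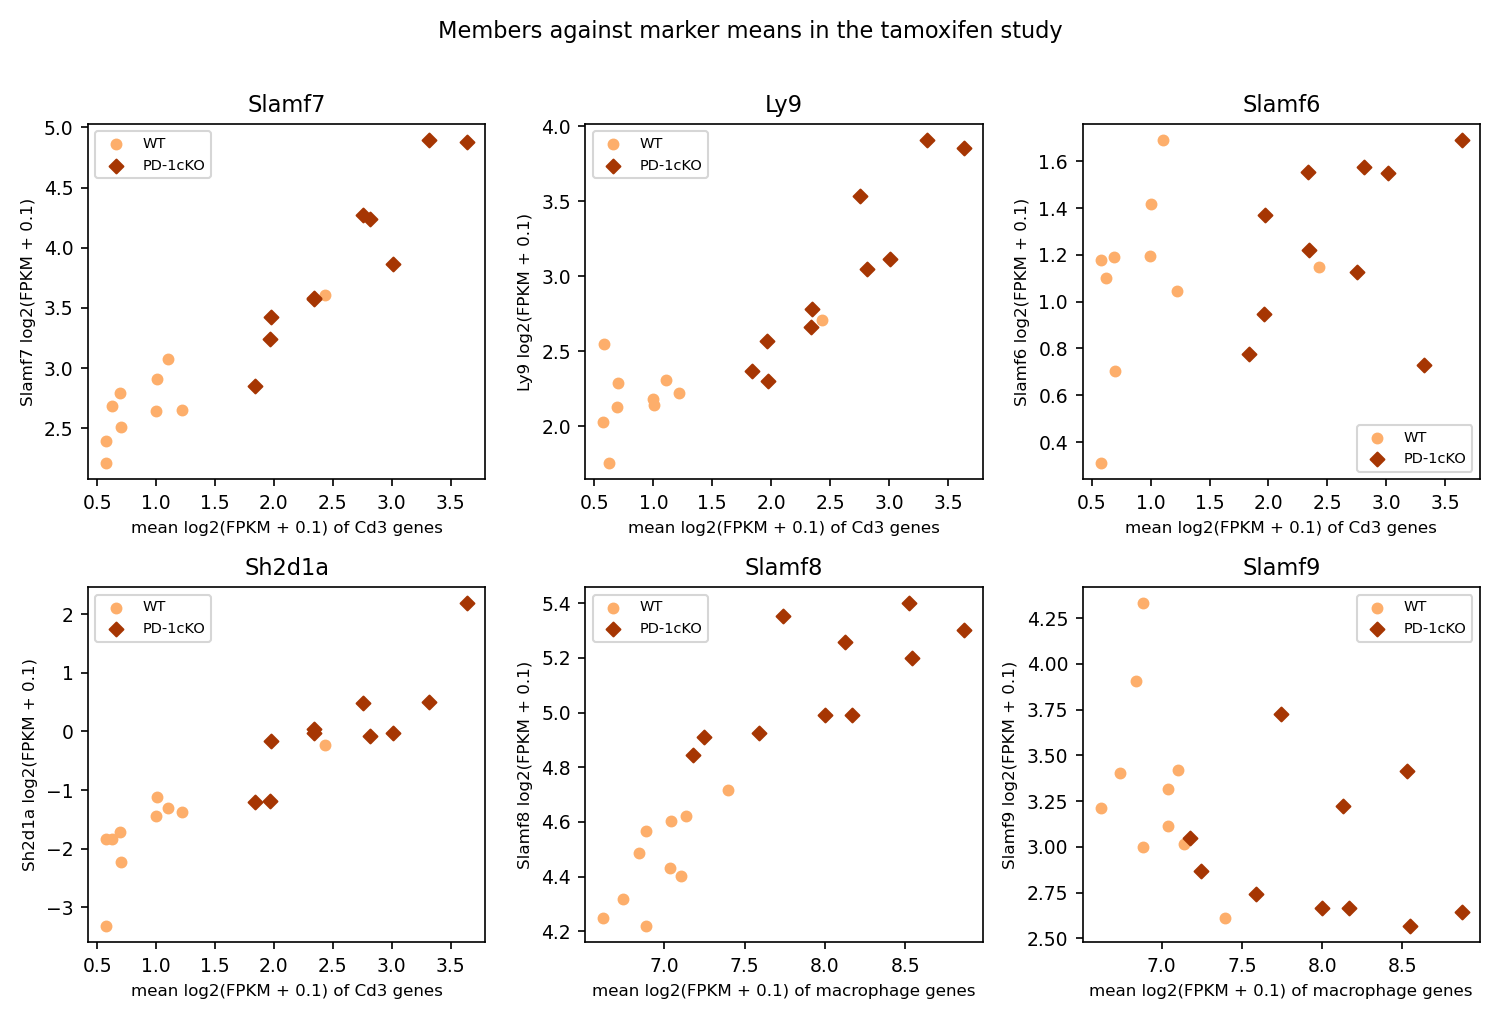
Level of 6 members, log2(FPKM + 0.1), in the WT and PD-1cKO tumors against the mean log2 level of the Cd3 genes (Slamf7, Ly9, Slamf6 and Sh2d1a) or of the macrophage genes (Slamf8 and Slamf9), each point a tumor. Slamf7 and Ly9 follow the Cd3 genes closely across the 10 PD-1cKO tumors (r = 0.946 and 0.939), and Slamf6 has r = 0.346.

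Within groups, the members formed looser and tighter pairs over the 43 tumors, taking each tumor's deviation from its group mean on the log2 scale. These correlations describe tumors whose genes share a library, its scaling and its depth, and carry no test. The shared receptors were the tightest, with a median r of 0.780 over 3 pairs, and Slamf7 reached 0.80 with Ly9 and with Sh2d1a. Pairs of a lymphoid and a myeloid gene had a median of 0.229. Slamf8 and Slamf9, neighbours on the chromosome and both myeloid, had r = 0.351. The r of 0.781 between Slamf6 and Slamf8 fell to 0.36 without the isotype tumor rich in mitochondrial FPKM.

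**Figure D5:**
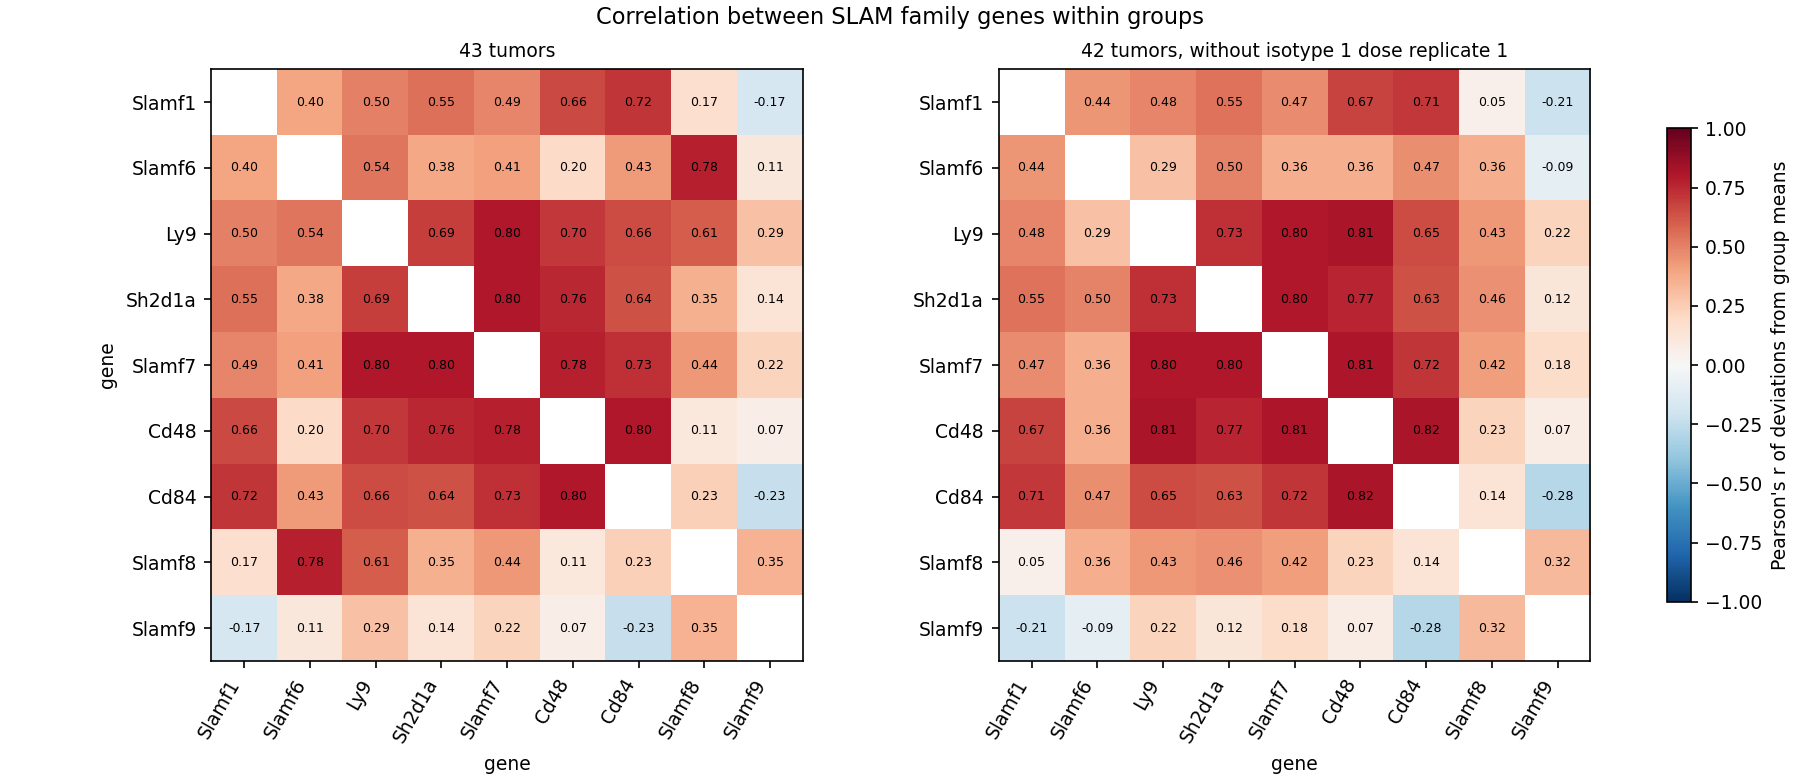
Pearson r between the 9 genes, from deviations of log2(FPKM + 0.1) from group means, over 43 tumors (left) and 42 tumors without the isotype tumor rich in mitochondrial FPKM (right), as coloured grids. The pairs among Ly9, Sh2d1a, Slamf7, Cd48 and Cd84 are dark in both grids, and the Slamf6 and Slamf8 pair goes from 0.781 to 0.36.

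The genes of the whole table with the pattern most like each member, by Pearson r of deviations from group means over the 43 tumors among protein-coding genes, were named as a description. For Slamf7 they were Cyfip2 (0.912), Fgl2 (0.908) and Mpeg1 (0.906), the last a pore-forming protein of macrophages. For Ly9 they were Fuca2 (0.916), Pirb (0.914), a receptor of myeloid and B cells, and Fmnl1 (0.905). Without the isotype tumor rich in mitochondrial FPKM they were Fuca2 (0.907), Lyz2 (0.899) and the macrophage gene Mpeg1 (0.892). Ly9, like Slamf6, was placed with the lymphoid genes from its known expression, and which cells carried either gene here was not tested. For Cd84 they were Rab8b (0.903), Plek (0.901) and Cd53 (0.889). Cd48 was nearest to Arhgap15 (0.890), and Sh2d1a to Gimap3 (0.841), Id2 (0.836) and Klrd1 (0.829), the last a receptor of NK and CD8+ T cells. Without the isotype tumor rich in mitochondrial FPKM, the nearest to Sh2d1a were Wfdc17 (0.857), Gimap3 (0.841) and Pirb (0.839), the last a receptor of myeloid and B cells. Slamf9 was nearest to Ppfia4 (0.782), Fcgr1 (0.729) and Cd300e (0.720), of which Fcgr1 is a Fc receptor of myeloid cells. Slamf1 was nearest to Samsn1 (0.734). For Slamf8 the nearest were Shisa5, Tmem229b and Sharpin, and without that tumor Cfb and H2-Ab1 (0.757 each), a complement factor and a class II antigen. Slamf6 was nearest to Fbxw5 at 0.846, a value that was 0.451 without that tumor, where P2ry10 led at 0.587.

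Of the 15 other genes of the pathway, 13 were tested at 2 doses and 5 were called higher, against 5.03% of all genes, with a median difference of 0.99. They were Cd2, the receptor for CD48 (2.92), Prkcq, a T cell kinase (2.43), Vav1, an exchange factor (1.40), Inpp5d, the phosphatase SHIP-1 (1.25) and Ptpn6, the phosphatase SHP-1 (1.22). Prkcq, at a mean of 0.359 FPKM in isotype and 2.44 in PD-1 Ab tumors, passed the filter only through the PD-1 Ab group. Cd244a, the other receptor for CD48, had 0.99 ± 0.14 (SE; limma adjusted p = 0.0012), just under the limit of 2-fold. Sh2d1b1, which encodes EAT-2, the adaptor that Slamf7 uses, had 0.69 (0.01). In PD-1cKO 3 of 14 were called higher, against 4.20% of all genes, Cd2 (1.66), Zbtb16, the transcription factor of innate-like T cells, which need SAP to develop (1.59), and Prkcq (1.08). There Cd244a had -0.13 (limma adjusted p = 0.48) and Sh2d1b1 -0.72 ± 0.23 (0.015). After 1 dose 0 of 13 were called.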

How the data were processed

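RNA of MC-38 cells, baseline tumors and tumors of 6 treated or tamoxifen-given groups was sequenced as paired 50-base reads of stranded libraries. The authors aligned reads to the mouse B38 genome with the Omicsoft aligner, quantified Ensembl genes and deposited 1 table of FPKM per gene and sample. Read counts and the depth of each library are not given there, so no interval for counting error is given, and the number of tumors sets the precision. The authors tested counts with DESeq2. Here log2(FPKM + 0.1) was tested with limma 3.58.1 (R 4.3.3, eBayes with a trend), within the groups compared, over genes whose mean reached 0.5 FPKM in 1 of them or more. A fold change on this scale understates that of low genes. P-values were adjusted by Benjamini-Hochberg over all tested genes, and a gene was called at an adjusted p under 0.01 and at least 2-fold. Ratios were tested with two-sided exact permutation tests, or 100000 permutations for 10 against 10 tumors, and called at an adjusted p under 0.05 (Python 3.11.15, scipy 1.17.1). Tests were checked on simulated data. The deposited IDs took symbols and exons from GENCODE M21 (99.1% matched).

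The 9 members, the marker lists, the pathway list and the tests were chosen with earlier results of these data known. Every member is reported, and similar genes are the 3 with the highest r among genes of mean 1 FPKM or more. Alternatives were a pseudocount of 1, no filter and a filter of 1 FPKM, median-of-ratios and upper-quartile scaling, limma's array weights, a fit over all groups, the identifier run as a covariate, a replicate block and each tumor left out in turn. Replicate numbers did not pair the tumors: correlations of same-numbered deviations ran from -0.217 to 0.144. The results of genes neighbouring the receptors are not reported here.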

Additional observations from a re-analysis of the deposited data

Results flagged for a closer look

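Within each of 54 combinations of gene and group the tumor farthest from the rest was compared with its nearest neighbour by Dixon's test. Standing out were 3 of these combinations, where 2.7 would be expected by chance at 1 in 20. Those of WT replicate 3 came from the same tumor and are not independent. In PD-1cKO replicate 8, Sh2d1a was at 4.44 FPKM, with the next tumor at 1.32. In WT replicate 3, Sh2d1a was at 0.753 FPKM (next 0.36) and Slamf7 at 12.1 FPKM (next 8.34).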

How the results depend on the processing

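At 2 doses, Slamf7 and Slamf8 kept their call in all 19 alternatives, whereas Slamf6 lost it in 12, Cd48 in 11, Sh2d1a in 7, Cd84 in 5 and Ly9 in 1. The 7 calls became 3 with no filter, 2 with the replicate block and 3 (without PD-1 Ab replicate 1) to 8 (without replicate 5) when single tumors were left out, while all calls numbered 799 and became 450, 316 and 375 to 1534, and 1773 with array weights. In PD-1cKO the 2 calls became 1 with a pseudocount of 1 (Sh2d1a lost), with array weights (Slamf7 lost) and with the replicate block (Sh2d1a lost), and 0 with the identifier run as a covariate. All 1217 calls there became 617 with a pseudocount of 1, 589 with array weights, 743 to 1871 without single tumors and 0 with the runs. With array weights 6 members were called in the difference between antibody and deletion (15 calls in all became 603, and 28 with no filter, 25 with a pseudocount of 1, 9 and 1 with median-of-ratios and upper-quartile scaling, 2 to 55 without single tumors) and 4 in that between the doses (0 in all became 506, and 1 with no filter). For 1 dose all calls went from 0 to 22 with array weights, 10 over all groups and 7 without isotype replicate 1. For baseline they went from 89 to 135 with a pseudocount of 1, 57 with no filter, 398 with array weights, 149 over all groups, 0 with the block and 13 to 166 without single tumors. Array weights, identifier runs and fits over all groups give more or fewer calls for causes that were not tested.

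Ratios of lymphoid to myeloid genes passing at 2 doses went from 2 to 1 with a pseudocount of 1 and to 0 with the replicate block, which with 5 pairs cannot go below p = 0.0625 in an exact permutation test, and to 0 to 3 without single tumors. After 1 dose they went from 0 to 0 to 1, and in PD-1cKO from 5 to 0 with the block and 2 to 5 without single tumors. Ratios to cell markers went from 2 to 0 with the block and 0 to 3 without single tumors after 1 dose, from 7 to 0 with the block at 2 doses, and from 9 to 5 with the block in PD-1cKO. With median-of-ratios scaling, correlations passing went from 0 to 2 for the macrophage genes in PD-1cKO and from 5 to 1 for the Cd3 genes in WT.

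Signs turned for small differences and low genes. With a pseudocount of 1 the 2-dose ratios turned to -0.64 for Slamf1 over Slamf8, -0.17 for Slamf1 over Slamf9, -0.064 for Slamf6 over Slamf8, -0.12 for Sh2d1a over Slamf8 and 0.10 for Slamf7 over the Cd3 genes, and Sh2d1a over the Cd3 genes in PD-1cKO to -0.56. Without single tumors Slamf7 over the Cd3 genes ran from -0.26 to 0.10, Sh2d1a over the Cd3 genes in PD-1cKO from -0.055 to 0.15 and Slamf7 over the macrophage genes there from -0.027 to 0.19. Baseline minus isotype for Slamf8 was -0.034 with median-of-ratios scaling, -0.0351 with upper-quartile scaling and -0.076 to 0.058 without single tumors, for Slamf9 0.21 with array weights and -0.54 to 0.24, for Slamf7 -0.034 to 0.96 and for Cd84 -0.029 to 0.19. The antibody minus deletion difference of Sh2d1a was -0.038 with upper-quartile scaling, and the dose difference of Slamf8 ran from -0.15 to 0.47. Depth could not be weighed from FPKM, and Slamf1 and Sh2d1a, mostly under 1 FPKM, are the members that this limits most.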
